A study of Homo sapiens with 4 samples.

Results

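Cholesterol and fatty acid synthesis, and the handling of surplus sterol, were followed through 30 listed genes: the enzymes of the mevalonate arm, the enzymes that turn squalene into cholesterol, the SREBP genes with INSIG1, lipogenic enzymes, and the LXR genes with their efflux and oxysterol partners. The members were all probe sets whose platform annotation names 1 of these symbols alone. This gave 27 genes with 53 probe sets, out of 11963 genes with 19064 single-symbol probe sets, and all 27 were among the 7916 genes tested. FDFT1 and NR1H2 were not analysed here, and CYP51A1 was read only from 2 probe sets annotated to both LRRD1 and CYP51A1, which are given as such.

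RNA came from SUP-B15 and BV-173, human B-lineage leukemia cell lines in which the Philadelphia chromosome yields a fusion kinase, BCR-ABL1. Cultures of both lines were taken after 16 h in 10 μmol/l STI571 and untreated. STI571 is imatinib, an inhibitor of that kinase; all 4 groups carry the fusion, the untreated ones had no STI571, and the labels name no vehicle. Each group was 1 Affymetrix array of 1 culture without replicates, and precision is limited by the number of arrays. Values are signal intensities on the deposited scale. Changes are differences of log2(signal + 24.5), a scale that understates the change of dim genes, and folds are on the same scale. A gene is represented by its brightest probe set, and levels are compared between arrays, not between genes. "Called" means an adjusted p under 0.05 for the mean of both lines in limma, fitted to all 7916 genes.

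Cells build cholesterol from acetyl-CoA through mevalonate, farnesyl diphosphate, squalene and lanosterol. SREBP transcription factors, held in the endoplasmic reticulum by INSIG proteins when sterol is plentiful, drive the genes of this route and of fatty acid synthesis. LXR receptors sense oxysterols and switch on efflux transporters such as ABCA1 and ABCG1.

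The stretches below show the 200 bases before the annotated start of 6 members, chosen because HMGCS1, MSMO1, DHCR7 and SCD carry 4 of the 6 called decreases described next, SREBF2 encodes the factor of the sterol genes, and ABCA1 had the largest difference in SUP-B15. They are RefSeq sequence of build GRCh38.p14, written 5′ to 3′ on the gene's strand. HMGCS1 spans chr5:43313413-43313612 on the minus strand, MSMO1 chr4:165327469-165327668 on the plus strand, DHCR7 chr11:71448394-71448593 on the minus strand, and SCD chr10:100347033-100347232 on the plus strand. SREBF2 spans chr22:41832905-41833104 on the plus strand and ABCA1 chr9:104928156-104928355 on the minus strand. Capitals mark the CCAAT box (CCAAT or, on the other strand, ATTGG) and the core of the sterol response element. In ABCA1 they mark a pair of AGGTCA repeats spaced by 4 bases, found with up to 2 mismatches and known as DR4, the arrangement that LXR binds.
HMGCS1: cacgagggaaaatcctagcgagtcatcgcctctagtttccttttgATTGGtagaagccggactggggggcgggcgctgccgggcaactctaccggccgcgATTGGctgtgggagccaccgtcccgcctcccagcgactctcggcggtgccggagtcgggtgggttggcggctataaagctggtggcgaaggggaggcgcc
MSMO1: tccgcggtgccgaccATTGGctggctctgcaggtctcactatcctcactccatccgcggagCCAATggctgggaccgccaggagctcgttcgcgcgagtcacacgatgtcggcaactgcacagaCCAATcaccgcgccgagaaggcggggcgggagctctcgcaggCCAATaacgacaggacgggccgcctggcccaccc
DHCR7: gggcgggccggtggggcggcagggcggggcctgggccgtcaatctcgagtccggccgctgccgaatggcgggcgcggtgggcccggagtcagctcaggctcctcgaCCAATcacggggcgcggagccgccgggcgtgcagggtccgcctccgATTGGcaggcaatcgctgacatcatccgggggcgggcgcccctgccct
SCD: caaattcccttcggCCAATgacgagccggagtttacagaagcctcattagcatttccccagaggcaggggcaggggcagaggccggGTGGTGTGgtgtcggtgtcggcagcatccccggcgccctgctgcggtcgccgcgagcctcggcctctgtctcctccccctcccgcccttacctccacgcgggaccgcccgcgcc
SREBF2: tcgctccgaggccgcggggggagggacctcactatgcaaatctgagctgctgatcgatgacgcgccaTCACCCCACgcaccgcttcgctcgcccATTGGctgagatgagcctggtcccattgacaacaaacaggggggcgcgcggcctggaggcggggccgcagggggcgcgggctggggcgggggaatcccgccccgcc
ABCA1: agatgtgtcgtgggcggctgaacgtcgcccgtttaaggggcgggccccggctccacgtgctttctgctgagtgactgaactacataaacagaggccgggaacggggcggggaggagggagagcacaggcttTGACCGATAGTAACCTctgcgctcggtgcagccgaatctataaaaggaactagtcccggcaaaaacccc

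MSMO1 holds 4 CCAAT boxes in this stretch, HMGCS1 and DHCR7 hold 2 each, and SCD and SREBF2 hold 1 each. The sterol response element core TCACNCCAC, searched on both strands, begins 133 bases before the SREBF2 start, and SCD holds its shorter form CACNCCAC on the other strand, 114 to 107 bases before its start. The DR4 of ABCA1 lies 69 to 54 bases before its start. The windows searched cover 25 of the 30 listed genes and leave out ACAT2 and SQLE, the other called sterol genes, as well as FDFT1, FASN and ABCG1. Over windows of 300 bases (250 before to 50 after the first listed start), CCAAT was found in 35.7% of 27305 RefSeq windows and in 12 of the 15 windows of mevalonate and sterol synthesis members. GGGCGG, the GC box, was in 44.6% of all windows and in 14 of those 15. The full element core was in 1.15% of all windows, in 1 of 25 member windows, that of SREBF2, and in 0 of the 15. The shorter form, which every full core also contains, was in 5.74% of all, in 5 of the 25 and in 1 of the 15. CACGTG, the palindromic E box, was in 7.43% of all, in 4 of the 25 and in 2 of the 15. The DR4 search matched 2.42% of all windows, 1 of the 25 and 0 of the 15. The 27305 windows were neither limited to genes tested on these arrays nor matched for base content. The shares therefore do not show a trait particular to sterol genes. A match describes letters and shows no binding.

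Array quality and identity were checked before the members. Median signals were 106.6 with STI571 and 115 untreated in SUP-B15, and 107.6 with STI571 and 95.5 untreated in BV-173. The GAPDH 3′/5′ ratio lay between 1.12 and 1.20. That of ACTB was 2.08 with STI571 and 2.40 untreated in SUP-B15, and 2.33 with STI571 and 2.38 untreated in BV-173. Mean 18S ribosomal RNA signal was 2817 in BV-173 with STI571, against 1513 to 1596 on the other 3 arrays. The part of these control values in the results was not tested. Of 9 B precursor markers 8 had a probe set, and all 8 reached the array median on both SUP-B15 arrays and 7 on both BV-173 arrays; MME (CD10) was dim in BV-173, at 81.4 with STI571 and 31.3 untreated on its brightest probe set. Their summed signal was 78842 with STI571 and 58639 untreated in SUP-B15, and 38408 with STI571 and 21230 untreated in BV-173, so it moved with treatment; its part in the results was not tested. None of 4 T cell markers or of 3 measured erythroid markers reached the array median on any array. Of 6 myeloid markers, 1 did so with STI571 and 2 did so untreated in SUP-B15, and 0 in BV-173, with sums of 129.4 to 429.4 over the 4 arrays.

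STI571 lowered the signal of 6 of the 27 genes by the test, 5 of them enzymes of the route to cholesterol and 1 a fatty acid desaturase, and called none higher. The 6 were HMGCS1, MSMO1, SQLE, ACAT2, DHCR7 and SCD, and each was lower with STI571 in both lines, by 1.17-fold to 2.83-fold. Over all genes tested, 1.62% were called lower and 1.4% higher. At an unadjusted p under 0.05 there were 12 members lower and 2 higher, and 970 of the 7916 genes in either direction. The 2 higher, ABCA1 and CYP27A1, passed the filter on dim genes through treated arrays alone, so they are not evidence of a rise. Regardless of the test, 15 members were lower in both lines (26.5% of all genes), 6 were higher in both (28.8%) and 6 had opposite signs (44.7%). The median log2 change of the 27 was −0.49 in SUP-B15 and −0.22 in BV-173, beside −0.01 and 0.05 for all genes. With 1 residual degree of freedom and a prior that limma estimated as infinite, each error is the value typical of the gene's brightness, not the gene's own spread. Without the intensity trend, or without the cell line as a block, none of the 6 calls held, with adjusted p of 0.55 to 0.65 in the fit without the trend. These are bulk cultures, in which fewer cells of a kind and less RNA per cell cannot be told apart.

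**Figure D1:**
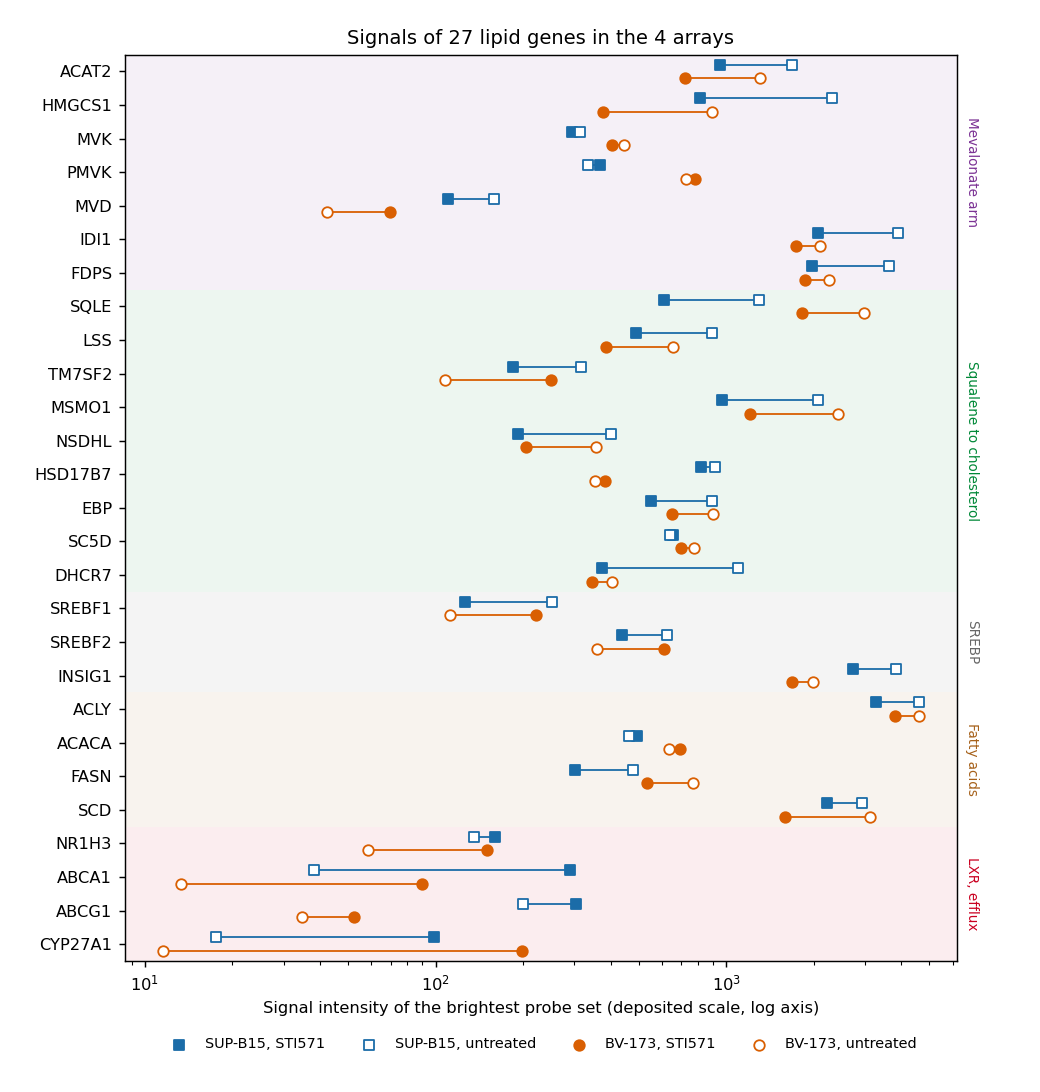
Signal intensity (log axis) of the brightest probe set of 27 genes on the 4 arrays, 1 point per array, with filled points for STI571 and open points for untreated cells, squares for SUP-B15 and circles for BV-173. The filled points of HMGCS1, MSMO1, SQLE, ACAT2, DHCR7 and SCD lie left of the open points in both lines, while those of ABCA1 and CYP27A1 lie to the right.

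In the mevalonate arm, HMGCS1 and ACAT2 fell, and 5 of the 7 genes were lower with STI571 in both lines (26.5% of all genes). HMGCS1, the synthase that makes HMG-CoA, gave 813.3 with STI571 and 2300.9 untreated in SUP-B15, and 376.8 with STI571 and 896.1 untreated in BV-173. Both treated arrays lay below both untreated ones. The mean log2 change was −1.34 (SE 0.23, adjusted p = 2.63e-06), or 2.78-fold lower in SUP-B15 and 2.29-fold lower in BV-173. ACAT2, the cytosolic thiolase that joins acetyl-CoA units at the head of the route, gave 949.8 with STI571 and 1686 untreated in SUP-B15, and 723.4 with STI571 and 1301.7 untreated in BV-173. Again both treated arrays were below both untreated ones. Its mean log2 change was −0.82 (SE 0.22, adjusted p = 0.0125), nearly equal in size in SUP-B15 (1.76-fold lower) and BV-173 (1.77-fold lower). The second HMGCS1 probe set was lower in both lines too but did not pass (log2 −1.41 in SUP-B15 and −0.47 in BV-173, adjusted p = 0.349). The ACAT2 call was lost when the arrays were scaled to a common median (adjusted p = 0.109).

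Further along the arm, IDI1 and FDPS were lower with STI571 mainly in SUP-B15, without passing the test. IDI1, which isomerises the building block of all isoprenoids and whose 2 probe sets both carry the maker's mark for cross-matching probes, gave 2067.7 with STI571 and 3895.2 untreated in SUP-B15, and 1737.6 with STI571 and 2092.1 untreated in BV-173. Its mean log2 change was −0.59 (SE 0.21, adjusted p = 0.102), with −0.91 in SUP-B15 and −0.26 in BV-173. When each probe set was tested by itself, the second IDI1 probe set passed: it gave 1781.2 with STI571 and 3596.6 untreated in SUP-B15, and 1528.9 with STI571 and 2018.6 untreated in BV-173 (adjusted p = 0.0301). FDPS, the synthase of farnesyl diphosphate, gave 1976.5 with STI571 and 3630.7 untreated in SUP-B15, and 1868.8 with STI571 and 2257.3 untreated in BV-173 (mean log2 change −0.57, SE 0.21, adjusted p = 0.118). For IDI1 and FDPS alike, the untreated SUP-B15 array was the high one and the other 3 lay closer together.

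The kinases of the arm and its decarboxylase had no called change with STI571. MVK, mevalonate kinase, gave 295.6 with STI571 and 312.9 untreated in SUP-B15, and 404.5 with STI571 and 446.3 untreated in BV-173. PMVK, the kinase of the next step, gave 367.5 with STI571 and 334.4 untreated in SUP-B15, and 782.8 with STI571 and 729.4 untreated in BV-173. Adjusted p was 0.955 for MVK and 0.947 for PMVK; with a common median, MVK in SUP-B15 (log2 0.03) and PMVK in BV-173 (log2 −0.07) changed sign. A dimmer MVK probe set gave 112.8 with STI571 and 125.7 untreated in SUP-B15, but 27.6 with STI571 and 151.5 untreated in BV-173. MVD, the decarboxylase, gave 110.2 with STI571 and 158.2 untreated in SUP-B15, but 69.5 with STI571 and 42.4 untreated in BV-173 (adjusted p = 0.997).

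Between squalene and cholesterol, MSMO1, SQLE and DHCR7 fell. Of the 9 genes, 6 were lower with STI571 in both lines (26.5% of all genes), 0 were higher in both (28.8%) and 3 had opposite signs (44.7%). MSMO1, the oxidase that starts the removal of methyl groups from lanosterol's products, gave 966.4 with STI571 and 2074.2 untreated in SUP-B15, and 1208.6 with STI571 and 2422.8 untreated in BV-173. All treated values were below all untreated ones, by 2.12-fold in SUP-B15 and 1.98-fold in BV-173. The mean log2 change was −1.04 (SE 0.21, adjusted p = 0.000175). SQLE, the monooxygenase that converts squalene to its epoxide, gave 609.1 with STI571 and 1298.8 untreated in SUP-B15, and 1816.1 with STI571 and 2980.9 untreated in BV-173. Here the lines lay apart, and the treated array was the lower one within each. Its mean log2 change was −0.88 (SE 0.21, adjusted p = 0.00286), which became adjusted p = 0.0571 on averaging its 3 probe sets. Tested by itself, the second SQLE probe set passed (log2 −1.39 in SUP-B15 and −0.36 in BV-173, adjusted p = 0.0212) and the dimmest did not (log2 −0.58 and −1.05, adjusted p = 0.15).

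DHCR7, the reductase of the last step to cholesterol, fell mainly in SUP-B15. Its signal was 373.2 with STI571 and 1101.1 untreated in SUP-B15, and 343.9 with STI571 and 405.7 untreated in BV-173. The untreated SUP-B15 array stood well above the other 3. The mean log2 change was −0.86 (SE 0.26, adjusted p = 0.0403), made of −1.50 in SUP-B15 and −0.22 in BV-173. Its second probe set had a more even response, with 452.2 with STI571 and 942.9 untreated in SUP-B15, and 236 with STI571 and 429 untreated in BV-173 (log2 −1.02 and −0.80, adjusted p = 0.03 when each probe set was tested). The call was lost with a common median, a pseudocount of 1, no filter on dim genes or averaging of both probe sets, with adjusted p between 0.0508 and 0.114.

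LSS, NSDHL and EBP were lower in both lines without passing the test. LSS, which closes the sterol rings, gave 489.1 with STI571 and 891.2 untreated in SUP-B15, and 385.7 with STI571 and 657.3 untreated in BV-173. Both treated arrays were below both untreated ones, and the mean log2 change of −0.78 (SE 0.25) had an adjusted p of 0.0596, or 0.0488 with a pseudocount of 98. Both dimmer LSS probe sets were lower in SUP-B15 (log2 −0.46 and −2.47) and slightly higher in BV-173 (log2 0.25 and 0.01). NSDHL, a dehydrogenase of the demethylation steps, gave 192.2 with STI571 and 401.8 untreated in SUP-B15, and 204.9 with STI571 and 355 untreated in BV-173 (mean log2 change −0.85, SE 0.33, adjusted p = 0.164). Its second probe set differed in BV-173, at 265.1 with STI571 and 221.6 untreated. EBP, the sterol isomerase, gave 551.5 with STI571 and 890.7 untreated in SUP-B15, and 649.8 with STI571 and 901.4 untreated in BV-173 (mean log2 change −0.56, SE 0.24, adjusted p = 0.245). Its further probe sets had larger differences in SUP-B15 (log2 −1.29 and −1.42) than in BV-173 (log2 −0.20 and −0.27).

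The other 3 sterol enzymes had opposite signs in the lines. TM7SF2, a sterol reductase related to the lamin B receptor, gave 184.7 with STI571 and 316.6 untreated in SUP-B15, but 248.7 with STI571 and 108 untreated in BV-173. It was the only member of the synthesis route at least 2-fold higher with STI571 in a line (2.06-fold in BV-173), and its mean log2 change was 0.17 (adjusted p = 0.946). HSD17B7, a reductase of the demethylation steps whose probe set carries the same mark as those of IDI1, gave 818.5 with STI571 and 916.4 untreated in SUP-B15, and 381.1 with STI571 and 352.9 untreated in BV-173. SC5D, the sterol desaturase before DHCR7, gave 657.9 with STI571 and 637.6 untreated in SUP-B15, and 696.4 with STI571 and 771.7 untreated in BV-173. HSD17B7 (adjusted p = 0.99) and SC5D (adjusted p = 0.977) stayed within 1.12-fold of the untreated level in each line, and HSD17B7 in BV-173 took a log2 change of −0.06 with a common median. A dim second SC5D probe set, below the filter, was lower in both lines, at 29.2 with STI571 and 85.4 untreated in SUP-B15, and 21.6 with STI571 and 48.4 untreated in BV-173.

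The probe sets annotated to both LRRD1 and CYP51A1, the lanosterol demethylase, were lower with STI571 in both lines. The brighter gave 881.5 with STI571 and 1582 untreated in SUP-B15, and 952.5 with STI571 and 1400.4 untreated in BV-173. The other gave 251.8 with STI571 and 625.9 untreated in SUP-B15, and 385.7 with STI571 and 561.8 untreated in BV-173. Neither was assigned to a gene or entered the test, and their log2 changes were −0.83 and −1.24 in SUP-B15 and −0.54 and −0.52 in BV-173.

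Taking the mevalonate and sterol enzymes as 1 route, 5 of 16 genes were called lower (1.62% of all genes) and 11 were lower in both lines (26.5%). Their median log2 change was −0.82 in SUP-B15 and −0.27 in BV-173, beside −0.01 and 0.05 for all genes. Signal at least 2-fold lower with STI571 was seen for 4 members in SUP-B15, namely HMGCS1, SQLE, MSMO1 and DHCR7, where 5.68% of all genes were that much lower. In BV-173 it was seen for HMGCS1 alone, where the share of all genes was 4.6%, and MSMO1 lay just under it at 1.98-fold. With a common median, 2 members were at least 2-fold lower in SUP-B15 and 3 in BV-173. No member's response was tested within a single line.

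**Figure D2:**
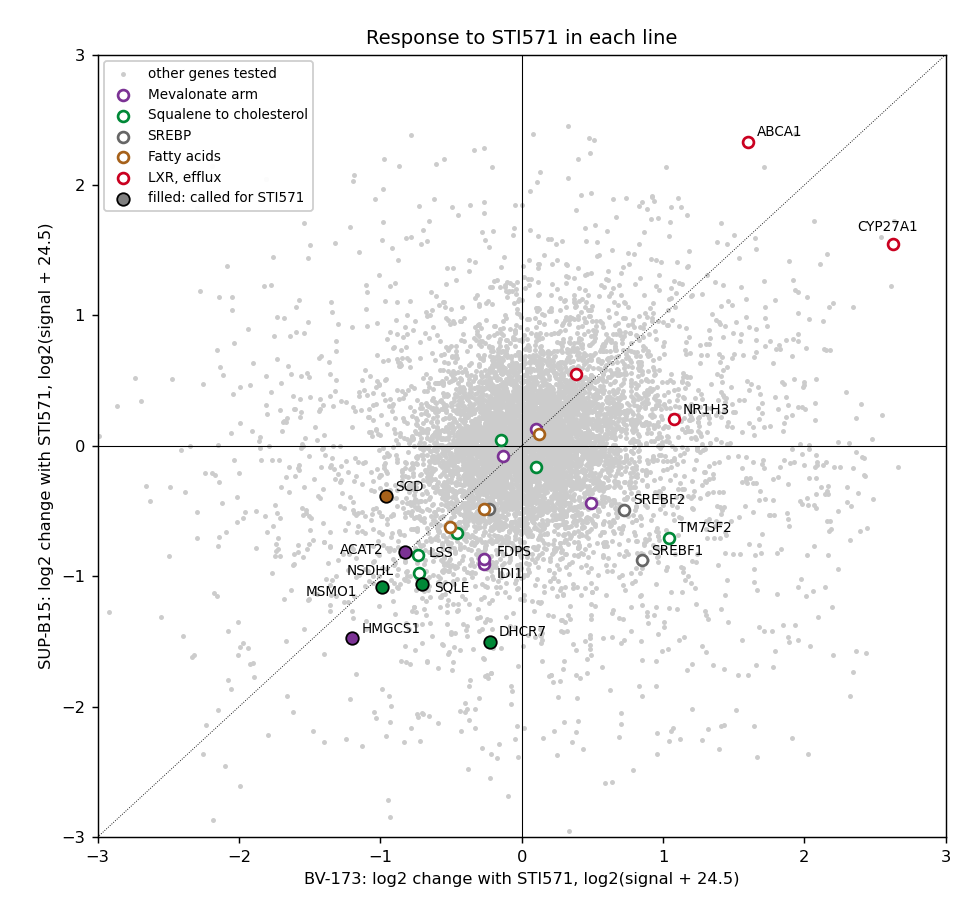
Log2 change with STI571 in SUP-B15 (vertical) against BV-173 (horizontal) for the 27 genes, coloured by role, over all genes tested in grey; filled points were called, the dotted line marks equal responses, and 9 genes lie outside the drawn range of −3 to 3. HMGCS1, MSMO1, SQLE and ACAT2 lie in the lower left near the dotted line, DHCR7, IDI1 and FDPS below it, TM7SF2, SREBF1 and SREBF2 at the lower right, and ABCA1 and CYP27A1 at the upper right.

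The SREBP genes had opposite signs in the lines, and none of the 3 genes of this control group was called. SREBF1, whose products act mainly on fatty acid synthesis, gave 126.1 with STI571 and 251.9 untreated in SUP-B15, but 221.2 with STI571 and 111.8 untreated in BV-173. That is 1.84-fold lower in SUP-B15 and 1.80-fold higher in BV-173, with a mean log2 change of −0.01 (SE 0.42, adjusted p = 0.998). SREBF2, the main activator of cholesterol synthesis genes, gave 438.3 with STI571 and 624.5 untreated in SUP-B15, but 611 with STI571 and 359.9 untreated in BV-173 (mean log2 change 0.12, SE 0.26, adjusted p = 0.945). Its second probe set differed less, with 393.3 with STI571 and 351.1 untreated in SUP-B15, and 312.8 with STI571 and 324.6 untreated in BV-173. That set therefore had the reverse signs, at log2 0.15 in SUP-B15 and −0.05 in BV-173. INSIG1, itself an SREBP target that retains the SREBP complex in the endoplasmic reticulum, gave 2725 with STI571 and 3828.1 untreated in SUP-B15, and 1687.6 with STI571 and 1982.5 untreated in BV-173. It was lower in both lines, by 1.40-fold in SUP-B15 and 1.17-fold in BV-173 (adjusted p = 0.521), and both further INSIG1 probe sets had the same sign in both lines.

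Among the 4 lipogenic enzymes SCD fell, and ACLY and FASN were lower in both lines without passing the test. SCD, the desaturase that makes monounsaturated fatty acids, gave 2227 with STI571 and 2919 untreated in SUP-B15, and 1592.3 with STI571 and 3113 untreated in BV-173. Both treated arrays lay below both untreated ones, with the larger difference in BV-173 (1.94-fold) than in SUP-B15 (1.31-fold). The mean log2 change was −0.67 (SE 0.21, adjusted p = 0.0394); the call was lost with a common median (adjusted p = 0.184) and on averaging its probe sets (adjusted p = 0.223). A dimmer SCD probe set also passed when tested by itself, with 190.2 with STI571 and 418.9 untreated in SUP-B15, and 197.9 with STI571 and 455.5 untreated in BV-173 (adjusted p = 0.0265). The other 2 SCD probe sets stayed under a signal of 140 on all arrays and were higher with STI571 in SUP-B15 (log2 0.30 and 1.13) and lower in BV-173 (log2 −1.13 and −0.40).

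FASN, fatty acid synthase, gave 302.5 with STI571 and 479.3 untreated in SUP-B15, and 532.6 with STI571 and 765.1 untreated in BV-173 (mean log2 change −0.56, SE 0.26, adjusted p = 0.331). A dim FASN probe set below the filter went the other way, at 85.6 with STI571 and 10.2 untreated in SUP-B15, and 99.2 with STI571 and 53.3 untreated in BV-173. ACLY, which supplies cytosolic acetyl-CoA, gave 3281.4 with STI571 and 4600.4 untreated in SUP-B15, and 3817.6 with STI571 and 4587.4 untreated in BV-173 (mean log2 change −0.37, SE 0.20, adjusted p = 0.475). Its untreated signals were alike in the lines, and its further probe sets were lower with STI571 in both. ACACA, the carboxylase that makes malonyl-CoA, gave 492.5 with STI571 and 461.5 untreated in SUP-B15, and 693.9 with STI571 and 636.1 untreated in BV-173 (adjusted p = 0.949). Its second probe set opposed this, with 35.4 with STI571 and 91.5 untreated in SUP-B15, and 13.6 with STI571 and 298.4 untreated in BV-173. Averaging both gave a log2 change of −0.96 (adjusted p = 0.223), and with a common median the bright set in BV-173 changed sign as well (log2 −0.05).

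**Figure D3:**
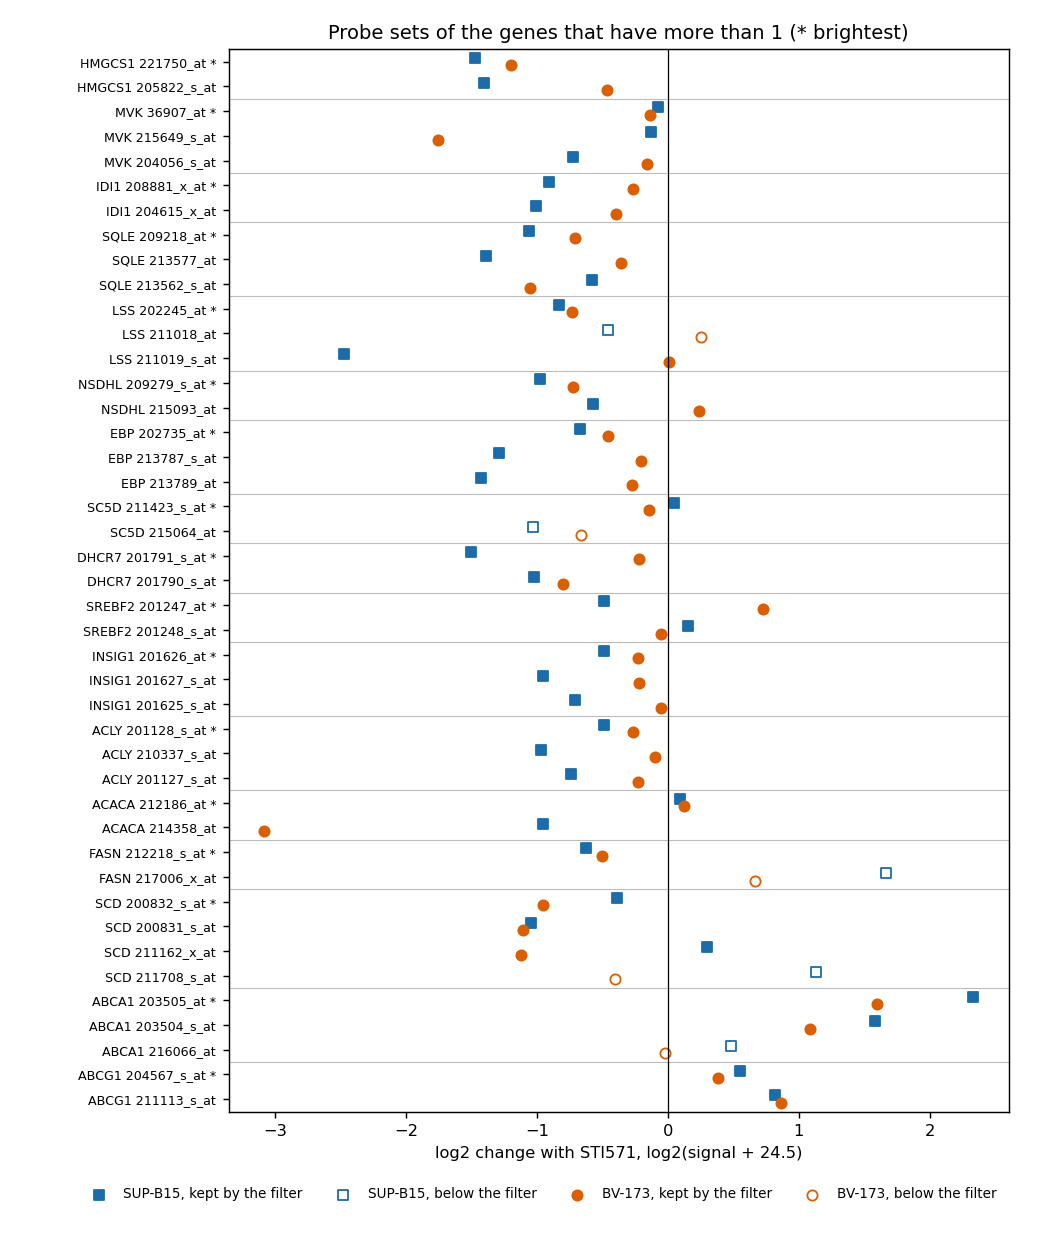
Log2 change with STI571 (horizontal) of every probe set of the genes that have more than 1, squares for SUP-B15 and circles for BV-173, with open symbols for probe sets below the filter and an asterisk on the brightest. The probe sets of HMGCS1, SQLE, DHCR7, EBP, INSIG1 and ACLY lie left of 0 in both lines, while those of SREBF2, ACACA, FASN and SCD lie on both sides.

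Probe sets of the same member mostly had the same sign of mean change. Of 26 further probe sets 23 did so, and of the 21 kept by the filter 20 did, against 2540 of 3902 further probe sets over all genes. The sign is that of the mean of both lines, so the second SREBF2 probe set counts here although its signs were reversed in each line. Some probe sets of LSS, NSDHL, SC5D, SCD and ABCA1 also count while differing in sign in a single line. Probe sets of a gene share its RNA and the same 4 arrays, so this speaks to the probes and not to replication.

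The 4 LXR and efflux genes measured were higher with STI571 in both lines (28.8% of all genes), at low signals, and none was called. ABCA1, the transporter that loads cholesterol onto apolipoprotein A-I, gave 290.5 with STI571 and 38 untreated in SUP-B15, and 90.1 with STI571 and 13.3 untreated in BV-173. Both treated arrays exceeded both untreated ones, by 5.04-fold in SUP-B15 and 3.03-fold in BV-173, with a mean log2 change of 1.97 (SE 0.73, adjusted p = 0.132). CYP27A1, the mitochondrial hydroxylase that makes an oxysterol ligand of LXR, gave 98.6 with STI571 and 17.6 untreated in SUP-B15, and 197.9 with STI571 and 11.5 untreated in BV-173. The treated arrays were again the high ones, by 2.92-fold in SUP-B15 and 6.18-fold in BV-173, with a mean log2 change of 2.09 (SE 0.85, adjusted p = 0.213). Each passed the filter, a signal at or above the array median on at least 1 array, on 1 treated array alone, so their direction was partly set by that filter.

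The size of these differences depended on the pseudocount because the untreated signals lay near or below it. With a pseudocount of 1 the log2 change of ABCA1 was 2.90 in SUP-B15 and 2.67 in BV-173, and with 98 it was 1.51 and 0.76. For CYP27A1 the values were 2.42 and 3.99 with a pseudocount of 1, and 0.77 and 1.43 with 98. A second ABCA1 probe set gave 185.1 with STI571 and 45.6 untreated in SUP-B15, and 72.6 with STI571 and 21.3 untreated in BV-173, higher in both lines too. The dimmest, below the filter, gave 20 with STI571 and 7.4 untreated in SUP-B15, and 28.3 with STI571 and 29.1 untreated in BV-173.

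NR1H3, which encodes LXR alpha, gave 160 with STI571 and 135.5 untreated in SUP-B15, and 149.9 with STI571 and 58.3 untreated in BV-173 (mean log2 change 0.64, SE 0.52, adjusted p = 0.739). The untreated BV-173 array was the low one. ABCG1, which exports cholesterol to HDL particles, gave 303.3 with STI571 and 199.6 untreated in SUP-B15, and 52.5 with STI571 and 34.6 untreated in BV-173. The arrays separated by line rather than by treatment, and the mean log2 change with STI571 was 0.47 (adjusted p = 0.853). Its second probe set gave 132.9 with STI571 and 64.9 untreated in SUP-B15, and 133.1 with STI571 and 62.3 untreated in BV-173, so it showed no such gap between the lines. Signal at least 2-fold higher with STI571 was seen for ABCA1 and CYP27A1 in SUP-B15 (4.08% of all genes), and for these, NR1H3 and TM7SF2 in BV-173 (6.91%). ABCA1 and CYP27A1 passed the filter through a treated array alone, so their part of these counts is no evidence of a rise.

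Other genes of these pathways were counted from lists. Of 62 genes, 47 had a probe set of their own and 38 were tested. Of these 1 was called lower and 0 higher, where 1.62% and 1.4% of all genes were. The called gene was TMEM97, a sterol-regulated membrane protein known as the sigma-2 receptor. It gave 999.5 with STI571 and 1903.1 untreated in SUP-B15, and 2504 with STI571 and 3531.5 untreated in BV-173 (mean log2 change −0.70, SE 0.21, adjusted p = 0.0286). Of the 38, 11 were lower in both lines, 10 higher in both and 17 opposite, and their median log2 change was 0.03. Over all genes these shares were 26.5%, 28.8% and 44.7%, which also stand beside the shorter lists that follow, and the median was 0.02. Of 11 further LXR targets and efflux genes none was called, 6 were higher in both lines, 3 lower in both and 2 opposite. In BV-173, 2 of the 11 were at least 2-fold lower with STI571 and 1 at least 2-fold higher (4.6% and 6.91% of all genes). In SUP-B15 these were 0 and 0 (5.68% and 4.08%). The 3 genes of BV-173 are named here after their values were seen. PLTP, a phospholipid transfer protein, gave 60 with STI571 and 120.1 untreated in SUP-B15, and 57.2 with STI571 and 184.4 untreated in BV-173 (log2 −0.78 and −1.35). PLTP passed the filter on dim genes through untreated arrays alone, so its part of these counts is no evidence of a fall. RXRA, which encodes a partner receptor of LXR, gave 124.5 with STI571 and 147.6 untreated in SUP-B15, and 12.6 with STI571 and 151 untreated in BV-173 (log2 −0.21 and −2.24). LPCAT3, a phospholipid acyltransferase, gave 167.3 with STI571 and 162.5 untreated in SUP-B15, and 190.9 with STI571 and 81.7 untreated in BV-173 (log2 0.04 and 1.02). Of 8 genes of the isoprenoid side branches none was called, 2 were lower in both lines, 2 higher in both and 4 opposite.

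Between the lines, the same fit called 6 members higher in SUP-B15 than in BV-173 and 3 lower, where 14.4% of all genes were called in each direction. Higher in SUP-B15 were HMGCS1 (log2 1.20, adjusted p = 2.51e-06), HSD17B7 (log2 1.19, adjusted p = 3.27e-05), INSIG1 (log2 0.81, adjusted p = 0.000565), DHCR7 (log2 0.75, adjusted p = 0.0197), IDI1 (log2 0.57, adjusted p = 0.0236) and ABCG1. Lower in SUP-B15 were SQLE (log2 −1.36, adjusted p = 4.57e-09), PMVK (log2 −1.06, adjusted p = 0.000396) and FASN (log2 −0.71, adjusted p = 0.0289). ABCG1 had the largest difference of these, a log2 value of 2.01 (adjusted p = 0.00152), but averaging its probe sets gave 1.01 (adjusted p = 0.146). ABCG1 passed the filter on dim genes through SUP-B15 arrays alone, so its call is no evidence of a higher level in that line. The calls of IDI1 and DHCR7 were lost with a common median (adjusted p of 0.208 and 0.111), that of IDI1 also on averaging its probe sets (adjusted p of 0.0504), that of INSIG1 on averaging its probe sets (adjusted p of 0.176), and that of FASN with no filter (adjusted p of 0.0521). Without the intensity trend 8 of these 9 calls were lost, with adjusted p of 0.055 for SQLE, 0.0676 for HMGCS1, 0.0688 for HSD17B7 and 0.0794 for PMVK. The call that held was that of ABCG1 (adjusted p = 0.0261), with the same limit from the filter. Its second probe set showed no such gap, at 132.9 with STI571 and 64.9 untreated in SUP-B15. In BV-173 that probe set gave 133.1 with STI571 and 62.3 untreated.

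**Figure D4:**
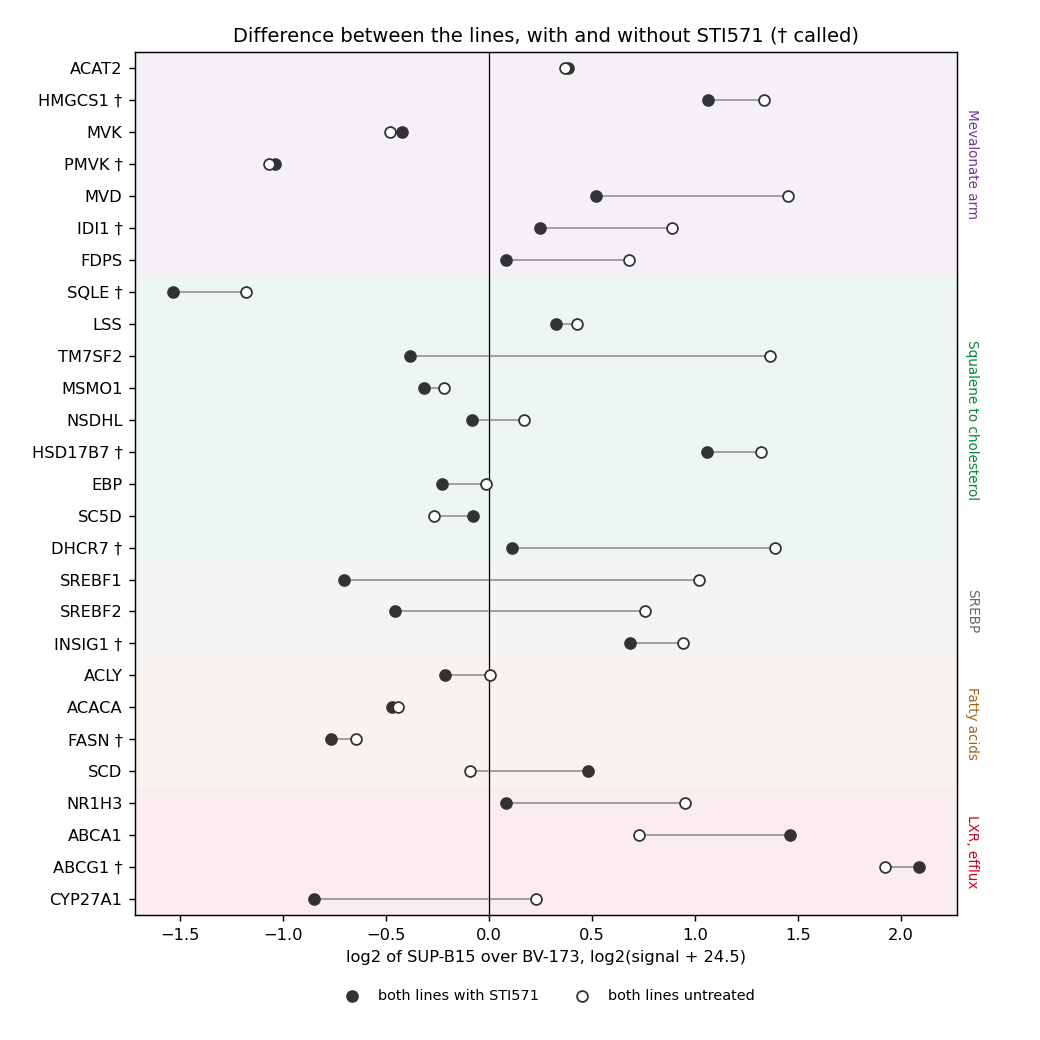
Log2 of SUP-B15 over BV-173 for the 27 genes, with filled points for the STI571-treated arrays and open points for the untreated arrays, joined by a line as long as the gap between both lines' responses; a dagger marks genes called for the line. For TM7SF2, SREBF1, SREBF2 and DHCR7 the filled point lies far left of the open one, while for ACAT2, MVK, PMVK and ACACA both nearly coincide.

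On the deposited scale, the differences between the lines were smaller with STI571 for much of the route. Over the 16 mevalonate and sterol enzymes the median log2 of SUP-B15 over BV-173 was 0.00 with STI571 and 0.40 untreated. Over the 27 members it was −0.08 with STI571 and 0.43 untreated, and over all genes −0.07 and 0.00. The untreated array medians also differed, at 115 in SUP-B15 and 95.5 in BV-173, against 106.6 and 107.6 with STI571. The part of this in the narrowing was not tested. DHCR7 differed by a log2 value of 0.11 with STI571 and 1.39 untreated, IDI1 by 0.25 with STI571 and 0.89 untreated, and FDPS by 0.08 with STI571 and 0.68 untreated. The difference was wider with STI571 for SQLE (−1.54, against −1.18 untreated) and MSMO1 (−0.32, against −0.22). It was also wider for EBP (−0.23, against −0.02) and slightly for ACAT2 (0.38, against 0.37). Of the 27 members, 20 had the lower (more negative or less positive) log2 change in SUP-B15, against 54.4% of all genes. These are the same 4 arrays read in another way, so the narrowing and the lower changes in SUP-B15 are 1 observation. The lower changes in SUP-B15 also depended on the scaling. With a common median, MVD, IDI1, FDPS, SQLE, TM7SF2, DHCR7, SREBF1, SREBF2, NR1H3 and CYP27A1 kept the lower change in SUP-B15. LSS, MSMO1, NSDHL, HSD17B7, EBP, INSIG1, ACLY, ACACA and FASN then had the lower change in BV-173. HMGCS1 was nearly equal, at −1.364 in SUP-B15 and −1.365 in BV-173. Responses at least 2-fold apart were seen for 5 members, TM7SF2, SREBF1, DHCR7, SREBF2 and CYP27A1, against 17.3% of all genes, and with 1 array per group these gaps had no test.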

How the data were processed

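Signals of 22277 probe sets on 4 Affymetrix arrays were used as deposited: linear intensity, which the authors processed with GCOS 1.3 per the submitters' processing notes; the sources used here do not give the summarisation or scaling target. Every deposited column had a 2%-trimmed mean of 500.2, so arrays were already scaled alike, and no column of other samples was present. Probe sets with 1 symbol in the platform annotation were kept where at or above the array's median on at least 1 array, and the probe set with the highest mean log2(signal + 24.5) stood for a gene; 24.5 is the 25th percentile of all signals. limma 3.58.1 in R 4.3.3 fitted treatment and cell line to 4 arrays with an intensity trend, two-sided, with Benjamini-Hochberg adjustment over 7916 genes. As a block, the cell line sets each treated culture against the untreated culture of that line. Responses of single lines were counted at 2-fold without a test.

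Every member with a probe set was named, and further probe sets where they moved otherwise. The members and lists were chosen with earlier results of these data known; so were the motif letters, the shorter element core and DR4. Alternatives were quantile normalization, a common median, pseudocounts of 1 and 98, other filters, other handling of probe sets, no trend, no block, and thresholds of 1.5-fold and 3-fold. All 53 member probe sets matched RefSeq by Entrez ID.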

Additional observations from a re-analysis of the deposited data

Results flagged for a closer look

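In 6 members the lines had opposite signs of response to STI571, and with 1 array per group the difference was not tested. The response of SUP-B15 minus that of BV-173, on the log2 scale, was −1.75 for TM7SF2, −1.73 for SREBF1, −1.21 for SREBF2 and −0.93 for MVD, each of them lower with STI571 in SUP-B15 and higher in BV-173. It was −0.26 for HSD17B7, with the same signs, and 0.19 for SC5D, higher in SUP-B15 and lower in BV-173. The gaps of HSD17B7 and SC5D rest on small changes, −0.16 in SUP-B15 and 0.10 in BV-173 for HSD17B7, and 0.04 in SUP-B15 and −0.14 in BV-173 for SC5D. TM7SF2, SREBF1, SREBF2 and MVD kept their signs in both lines under each scaling, pseudocount and probe set setting that retained them, whereas HSD17B7 was lower in both lines with a common median (log2 −0.05 in SUP-B15 and −0.06 in BV-173). The second SREBF2 probe set had the opposite signs. Opposite signs were found in 44.7% of all genes tested. The BV-173 array with STI571 also had the highest 18S ribosomal RNA signal, 2817 against 1513 to 1596 on the other arrays; its part in these gaps was not tested.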

How the results depend on the processing

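Of 82 recomputed counts 56 stayed within 1.5 times the value reported. The 6 members called lower with STI571 became 3 with a common median, 3 on averaging each gene's probe sets, 3 of the 15 testable with gene-specific probe sets alone, where ACAT2, DHCR7 and SCD had no such probe set, and 0 without the intensity trend or without the block for the cell line. Without the trend or the block limma called 0 of all genes, with 658 and 70 at an unadjusted p under 0.05. HMGCS1 and MSMO1 lost their calls under those 2 settings alone. Called higher stayed at 0 throughout. Between the lines, the 6 called higher became 3 on averaging probe sets, 2 with gene-specific probe sets and 1 without the trend, and the 3 called lower became 1 with gene-specific probe sets and 0 without the trend. At least 2-fold lower in SUP-B15 were 4, but 2 with a common median, and 13 at 1.5-fold and 0 at 3-fold; in BV-173 1, but 3 with a common median, 2 with a pseudocount of 1, 2 on averaging probe sets, and 7 at 1.5-fold and 0 at 3-fold. At least 2-fold higher in SUP-B15 were 2, but 1 with a pseudocount of 98, 0 with a filter at the 75th percentile, which left 18 members and none of the efflux genes, and 1 at 3-fold; in BV-173 4, but 2 with quantile normalization, 2 with a common median, 1 with a pseudocount of 98, 0 with the stricter filter and 2 at 3-fold. The common median moved the median change of all genes to 0.08 in SUP-B15 and −0.11 in BV-173, against −0.01 and 0.05 on the deposited scale.

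Of 249 recomputed STI571 changes of single genes 226 kept direction and side of the threshold. The mean log2 change of MVD became −0.022 with a pseudocount of 98 and that of ACACA −0.96 with the mean of its probe sets. Of 222 recomputed line differences 205 kept both; MVK became 0.66 with the mean of its probe sets, and NSDHL −0.015 with quantile normalization and −0.077 with a common median. Where no construction shows it, the cause was not tested. With 1 array per group no array could be left out. No paired analysis by replicate number was possible because the labels give none. Signals near 24.5, such as those of ABCA1 and CYP27A1 in untreated cells, make the size of a fold depend on the pseudocount.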
